A study of Mus musculus with 21 samples.

Results

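The genes described here are 9 members of the ATF4 stress response and of serine synthesis, chosen by symbol from the 24421 genes of the deposited expression tables. They are the transcription factors Atf4, Atf5 and Ddit3, the feedback regulator Trib3, the glutathione-degrading enzyme Chac1, asparagine synthetase (Asns) and the enzymes of serine synthesis Phgdh, Psat1 and Psph. All 9 passed the filter on low counts, which left 12786 genes for testing. RNA-seq measured poly(A) RNA of bone marrow B cell precursors of 53BP1-/- C57BL/6 mice, taken as primary cells, cultured with IL-7 and transduced with the retroviral vector MIGR1. The vector was empty (EV) or carried human BCR-ABL1 p210 or mouse C-MYC, and cells were harvested between day 7 and day 9. According to the paper, the RNA-seq harvest followed that for ChIP-seq, in which dead and apoptotic cells were depleted. The lack of 53BP1, a DNA repair factor, was shared by all groups, so no group here had wild-type 53BP1. Each condition had 2 libraries from duplicate experiments. The sources do not say that these came from separate animals, and the p-values measure only the spread between these libraries, which may be technical.

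In the integrated stress response, kinases that sense amino acid lack, heme lack, double-stranded RNA or misfolded protein phosphorylate eIF2alpha. Overall protein synthesis then falls while translation of the Atf4 mRNA rises, so that the level of this mRNA does not measure the amount of ATF4 protein. ATF4 binds DNA with C/EBP partners at amino acid response elements and raises genes of amino acid synthesis, import and tRNA charging, and with DDIT3 (CHOP) genes linked to cell death. Serine is made from 3-phosphoglycerate, an intermediate of glycolysis, by PHGDH, PSAT1 and PSPH in that order, and feeds glycine and 1-carbon units into nucleotide synthesis. MYC is known to raise nucleotide and protein synthesis in lymphoid cells.

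The core of the amino acid response element, TGATGNAA, was searched on both strands of the RefSeq promoters of GRCm38.p6, each with 250 bases before and 50 bases after the start of a gene. All 9 members had a promoter sequence there. The motif lay in 3.97% of the 32851 promoters and in those of Trib3, Chac1 and Asns among the members. Sequence outside these promoters was not searched. Within them, the windows of 30 bases below separate the 3 members with the motif from the other 6 and are shown for that reason. They are written in the direction of transcription with the motif in capitals, and in Trib3 and Chac1 the motif lies on the reverse strand.
Trib3: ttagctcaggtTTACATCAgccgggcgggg
Chac1: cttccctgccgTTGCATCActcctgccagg
Asns: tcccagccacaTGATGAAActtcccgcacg
The Trib3 window spans chr2:152344028-152344057 on the minus strand, and its motif begins at position 15 after the RefSeq start. The Chac1 window spans chr2:119351038-119351067 on the plus strand, with the motif at position -193. The Asns window spans chr6:7693214-7693243 on the minus strand, with the motif at position -23. All 3 positions count from RefSeq starts, which differ from the starts in the GENCODE annotation used for the gene coordinates below. By those coordinates the Trib3 motif lies before the start of the gene and the Asns motif within the gene. Of the 3 genes with this motif, only Asns was called as changed in any comparison with all 6 libraries fitted, by the test given below. Whether the 3 shared a pattern of expression was not tested, and Chac1 had few counts. A looser form, TGANGNAA, which contains the first motif, lay in 16.5% of all promoters and in the same 3 members. CACGTG, the E-box that MYC binds with MAX, lay in 7.15% of all promoters and in 0 of the members, which says only that these letters were not in these windows.

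Library totals lay between 20687092 and 24095955 counts, and counts are given below as CPM, each count taken relative to the total of its library after scaling between libraries by TMM. Replicates differed by more than sampling noise in each condition. The Myc gene, whose coding sequence was in the C-MYC vector, had 181 and 137 CPM with EV, 343 and 348 with BCR-ABL1 and 1743 and 1233 with C-MYC. The counts do not separate the vector's transcript from the cell's own. B precursor markers (Cd79a, Cd79b, Vpreb1, Igll1, Ebf1, Pax5 and Blnk) were present in each library, with sums of 4580 to 5275 CPM in EV, 4754 to 5345 in BCR-ABL1 and 2584 to 3176 in C-MYC. Markers of other cells were not evenly spread. The 9 myeloid markers summed to 847 to 1120 CPM in EV, 140 to 171 in BCR-ABL1 and 238 to 401 in C-MYC. The 6 T and NK markers summed to 86.1 to 118 CPM in EV and 3.82 to 8.64 in the transformed cells, and the 5 stromal markers to 102 to 155 and 1.75 to 5.78. Of the stromal markers, Col1a1 had 52.0 and 76.1 CPM in EV, Col1a2 47.6 and 74.9, and Col3a1 2.06 and 3.59. Lum had 0 counts throughout, and Dcn had 4 and 8 counts in EV and 0 elsewhere. Neither Lum nor Dcn was tested. The 5 erythroid markers summed to 0.711 to 1.54 CPM over the 6 libraries, and 3 of them had 0 counts throughout. As bulk samples, these libraries cannot tell fewer cells of a type from less RNA per cell.

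The enzymes of amino acid synthesis were the members that rose, and the transcript of Atf4 itself was not called in any comparison. A gene was called at an adjusted p below 0.05 by the quasi-likelihood test of edgeR, with p-values adjusted over all 12786 genes after Benjamini and Hochberg, the test behind every adjusted p given here unless another is named. In C-MYC against EV, 4 of 9 members were called higher (Asns, Phgdh, Psat1 and Psph), where 18.6% of all genes were called higher. Ddit3 was called lower, where 24.5% of all genes were. In BCR-ABL1 against EV, Phgdh and Psat1 were called higher, against 5.08% of all genes, and 0 members were called lower, against 12.0%. At an unadjusted p below 0.05 by edgeR 1 member was lower there, and 0 were called lower by DESeq2 or limma. In C-MYC against BCR-ABL1, 3 members were called higher (Asns, Phgdh and Psat1), against 11.5% of all genes, and 0 lower, against 11.9%. At an unadjusted p below 0.05 by edgeR 2 were lower there, and 0 were called lower by DESeq2 and 1, Ddit3, by limma on log2(FPKM + 1). The median log2 fold change of the 9 members was -0.01 in C-MYC against EV, where that of all genes was -0.08. It was 0.13 in BCR-ABL1 against EV and 0.22 in C-MYC against BCR-ABL1, where those of all genes were 0.00 and -0.00. Both comparisons with EV used the same 2 EV libraries and are not independent of each other. Sums of myeloid, T and NK and stromal markers were higher in EV than in the transformed cells. The part of this difference in the rises of members over EV was not tested.

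**Figure D1:**
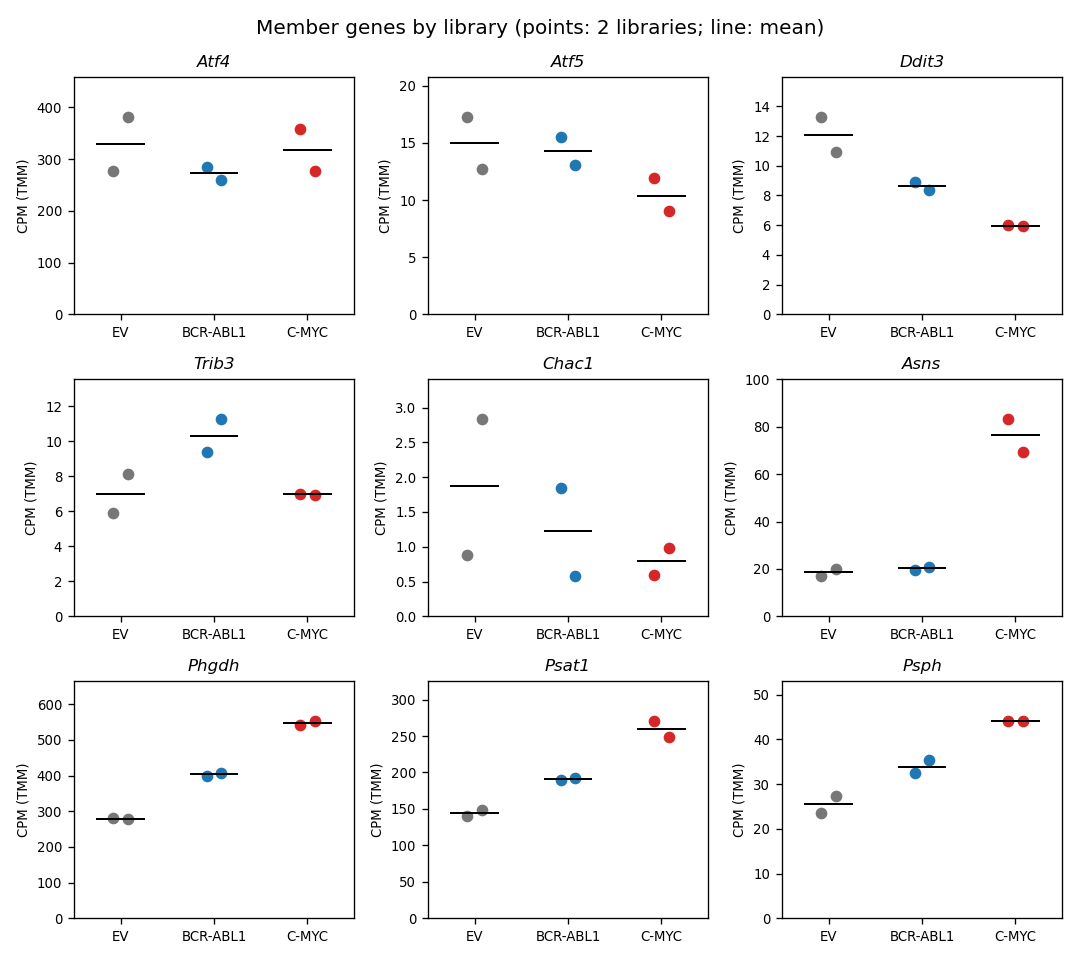
CPM of the 9 member genes (vertical axes, each from 0) in the libraries of EV, BCR-ABL1 and C-MYC, with 1 point per library and a line at the mean of 2. Phgdh, Psat1 and Psph step up from EV to BCR-ABL1 to C-MYC, Asns stands apart in C-MYC at 69.5 and 83.4 CPM, and Ddit3 steps down.

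Atf4 (chr15:80255184-80257541, plus strand) encodes the central factor of the response. It had 278 and 382 CPM with EV, 285 and 260 with BCR-ABL1 and 358 and 277 with C-MYC. The 2 EV libraries were further apart than the group means of 330 (EV), 273 (BCR-ABL1) and 317 (C-MYC), and C-MYC and BCR-ABL1 libraries overlapped those of EV. Its log2 fold change in C-MYC against EV was -0.06 (SE 0.18, 95% interval -0.47 to 0.36, adjusted p = 0.824). In BCR-ABL1 against EV it was -0.27 (SE 0.18, interval -0.68 to 0.14, adjusted p = 0.345). Both intervals are wide, so the data do not show equal levels. Without EV replicate 2 the value in C-MYC against EV was 0.19, and without C-MYC replicate 2 it was 0.12.

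Atf5 (chr7:44812256-44816658, minus strand) encodes a related factor that is likewise translated under eIF2alpha phosphorylation. It had 17.3 and 12.7 CPM with EV, 15.5 and 13.1 with BCR-ABL1 and 11.9 and 9.03 with C-MYC. Both C-MYC libraries lay under the other 4, by 0.52 on the log2 scale from EV, a difference that was not called (log2 fold change -0.52, SE 0.23, adjusted p = 0.0998). Without EV replicate 2 the log2 fold change was -0.73 with an adjusted p of 0.0247. In BCR-ABL1 against EV the value was -0.07 (SE 0.23, adjusted p = 0.875), and it turned to 0.18 without EV replicate 1 and to 0.05 without BCR-ABL1 replicate 2. The exons of Atf5 share 82 bases, 4.11% of their length, with the opposite-strand gene Nup62, and the strand setting of the counting is not given in the sources used here.

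Ddit3 (chr10:127290774-127296288, plus strand) encodes CHOP, the factor of the response that is linked to cell death. It had 13.3 and 10.9 CPM with EV, 8.91 and 8.35 with BCR-ABL1 and 5.98 and 5.93 with C-MYC. The 3 groups did not overlap and ran in the order EV, BCR-ABL1, C-MYC from high to low. Ddit3 fell 2.03-fold in C-MYC against EV (log2 fold change -1.02, SE 0.20, adjusted p = 0.00521). This call held when any of the 6 libraries was left out, with adjusted p-values up to 0.0379. The differences between BCR-ABL1 and EV (-0.49, SE 0.20, adjusted p = 0.137) and between C-MYC and BCR-ABL1 (-0.54, SE 0.20, adjusted p = 0.0929) were not called. The second of these passed the threshold without EV replicate 1 (adjusted p = 0.0449) and without EV replicate 2 (0.0421), neither of which is in the groups compared, and with only the 4 libraries compared (0.0465). Ddit3 shares 68 exon bases, 3.97% of its exon length, with Mars on the opposite strand, which was higher in C-MYC than in EV (log2 fold change 0.83). From EV to C-MYC, 8 of 9 myeloid, 6 of 6 T and NK and 3 of 3 tested stromal markers were also called lower, and their part in the fall of Ddit3 was not tested.

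Trib3 (chr2:152337422-152344032, minus strand), a pseudokinase that ATF4 induces and that restrains ATF4, had another order. It had 5.89 and 8.15 CPM with EV, 9.39 and 11.3 with BCR-ABL1 and 6.99 and 6.96 with C-MYC. Both BCR-ABL1 libraries lay above the other 4, with a log2 fold change of 0.56 over EV (SE 0.23, interval 0.02 to 1.09, adjusted p = 0.145). Without EV replicate 2 that value was 0.82 and passed the threshold (adjusted p = 0.0397). C-MYC against BCR-ABL1 gave -0.57 (SE 0.23, adjusted p = 0.115), which passed without EV replicate 1 (adjusted p = 0.04), without EV replicate 2 (0.0408) and with only the 4 libraries compared (0.0398). C-MYC against EV gave -0.01 (SE 0.23, interval -0.55 to 0.53), a value so near 0 that its sign changed with the scaling, from -0.01 with TMM to 0.03 with DESeq2's size factors.

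Chac1 (chr2:119351229-119354381, plus strand), which breaks down glutathione and is a sensitive target of ATF4 and CHOP, was the member with the fewest counts. It had 19 and 68 counts with EV, 39 and 14 with BCR-ABL1 and 13 and 22 with C-MYC, which is 0.888 and 2.84, 1.85 and 0.582, and 0.598 and 0.988 CPM. The 2 EV libraries differed more from each other than the group means did, and the groups overlapped. The log2 fold change in C-MYC against EV was -1.24 (SE 0.70, interval -2.87 to 0.40, adjusted p = 0.192), and without EV replicate 1 it was -1.83 (adjusted p = 0.0401). In BCR-ABL1 against EV it was -0.64 (SE 0.68, interval -2.21 to 0.92), and it turned to 0.43 without EV replicate 2. With all 6 libraries a change of Chac1 was not detectable at this depth and spread.

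Asns (chr6:7675169-7693254, minus strand) makes asparagine from aspartate and glutamine and is a classic ATF4 target. It showed the largest difference among the members. It had 17.2 and 19.8 CPM with EV, 19.5 and 20.9 with BCR-ABL1 and 83.4 and 69.5 with C-MYC. Both C-MYC libraries lay far above the other 4, which overlapped between EV and BCR-ABL1. Asns rose 4.13-fold in C-MYC against EV (log2 fold change 2.05, SE 0.15, adjusted p = 0.000194) and 3.78-fold against BCR-ABL1 (1.92, SE 0.15, adjusted p = 0.000542). Both calls held when any of the 6 libraries was left out. BCR-ABL1 and EV libraries lay close together, with a log2 fold change of 0.13 (SE 0.15, interval -0.22 to 0.48, adjusted p = 0.614). Measured against Atf4 in the same library, Asns had 6.20 and 5.18 counts per 100 Atf4 counts with EV, 6.85 and 8.05 with BCR-ABL1 and 23.3 and 25.1 with C-MYC.

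Phgdh (chr3:98313170-98339990, minus strand), the first enzyme of serine synthesis, rose in steps. It had 281 and 278 CPM with EV, 399 and 408 with BCR-ABL1 and 542 and 554 with C-MYC. The groups did not overlap, and the 2 libraries of each lay close together, with SDs of 2.02, 6.00 and 8.40 CPM. Phgdh was 1.45-fold higher in BCR-ABL1 than in EV (log2 fold change 0.53, SE 0.09, adjusted p = 0.00691), 1.96-fold higher in C-MYC than in EV (0.97, SE 0.09, adjusted p = 0.00035) and 1.36-fold higher in C-MYC than in BCR-ABL1 (0.44, SE 0.09, adjusted p = 0.0115). The call against EV in C-MYC held when any library was left out. That in BCR-ABL1 was lost without BCR-ABL1 replicate 1 (adjusted p = 0.0657) or replicate 2 (0.086), with log2 fold changes of 0.55 and 0.51. That between C-MYC and BCR-ABL1 was lost without BCR-ABL1 replicate 1 (0.139), BCR-ABL1 replicate 2 (0.087) or C-MYC replicate 2 (0.0647).

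Psat1 (chr19:15904678-15947337, minus strand), the transaminase of the next step, followed the same order. It had 140 and 149 CPM with EV, 190 and 193 with BCR-ABL1 and 271 and 249 with C-MYC, with no overlap between groups. It was 1.32-fold higher in BCR-ABL1 (log2 fold change 0.40, SE 0.10, adjusted p = 0.0317) and 1.79-fold higher in C-MYC (0.84, SE 0.10, adjusted p = 0.000741) than in EV. C-MYC exceeded BCR-ABL1 1.36-fold (0.44, SE 0.10, adjusted p = 0.0184). The call in C-MYC against EV held when any library was left out, with adjusted p-values up to 0.00923. The call in BCR-ABL1 against EV was lost without EV replicate 1 (adjusted p = 0.0574), BCR-ABL1 replicate 1 (0.178), BCR-ABL1 replicate 2 (0.223) or C-MYC replicate 1 (0.0506). It was also lost with only the 4 libraries compared (0.0587) and by limma on log2(FPKM + 1) (0.0894). The call between C-MYC and BCR-ABL1 was lost without any 1 of their 4 libraries, with adjusted p-values of 0.175 and 0.113 without BCR-ABL1 replicates 1 and 2, and of 0.111 and 0.0621 without C-MYC replicates 1 and 2.

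Psph (chr5:129765558-129787449, minus strand), the phosphatase that releases serine, had 23.6 and 27.4 CPM with EV, 32.4 and 35.4 with BCR-ABL1 and 44.2 and 44.1 with C-MYC. These groups also did not overlap. Psph rose 1.73-fold in C-MYC against EV (log2 fold change 0.79, SE 0.14, adjusted p = 0.00306), a call that held when any library was left out. The differences between BCR-ABL1 and EV (0.41, SE 0.14, adjusted p = 0.0801) and between C-MYC and BCR-ABL1 (0.38, SE 0.14, adjusted p = 0.081) were not called. The first passed the threshold by DESeq2 (adjusted p = 0.0484) and without EV replicate 2 (0.0295). The second passed without EV replicate 1 (0.0285), without EV replicate 2 (0.0276) and with only the 4 libraries compared (0.0249). Psph shares 452 exon bases, 10.4% of its exon length, with the opposite-strand gene Cct6a, a chaperonin subunit. Cct6a had 325 and 364 CPM with EV, 498 and 531 with BCR-ABL1 and 798 and 797 with C-MYC, the same order at a far higher level. How many reads of Cct6a were counted for Psph was not tested.

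**Figure D2:**
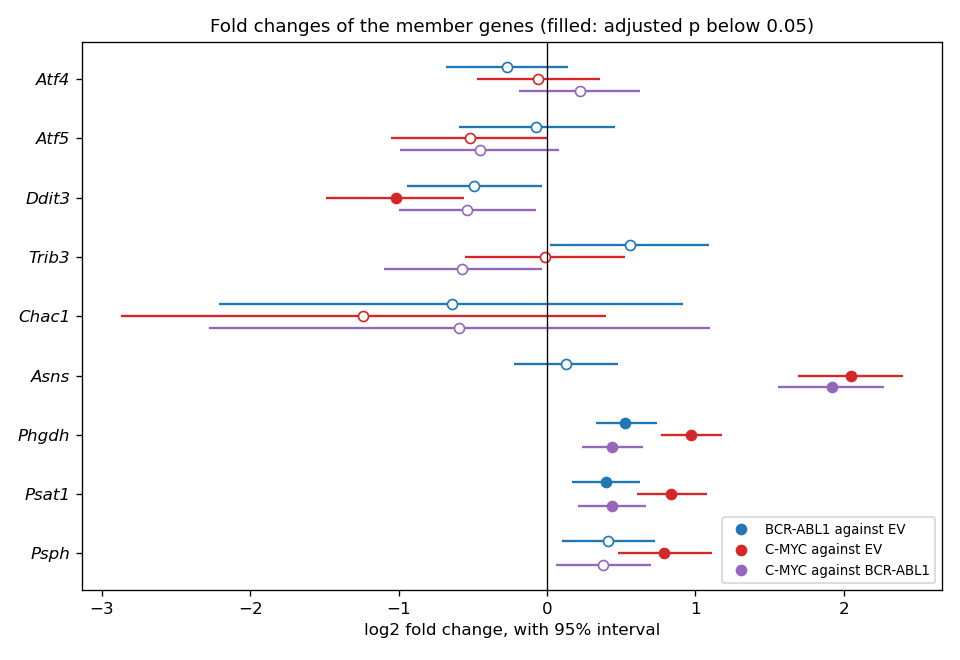
Log2 fold changes of the 9 members (horizontal axis) with 95% intervals in BCR-ABL1 against EV, C-MYC against EV and C-MYC against BCR-ABL1, filled where the adjusted p was below 0.05. The 4 synthesis enzymes lie to the right of 0 in all 3 comparisons, with Asns at 2.05 in C-MYC against EV, and the widest intervals belong to Chac1.

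Levels of the members could be compared with each other only per length, and the order depended on the length scale. By the deposited FPKM, Atf4 had the highest level in EV at 216 ± 51.7 (SD, n = 2), followed by Psat1 at 37.1 ± 2.22 and Phgdh at 28.2 ± 0.220. Atf5 (16.8 ± 2.66), Asns (14.6 ± 1.64) and Psph (14.2 ± 1.81) came next and did not differ beyond their spread. Ddit3 (7.50 ± 1.16), Trib3 (3.12 ± 0.715) and Chac1 (1.19 ± 0.923) were the lowest. In C-MYC Asns stood at 55.3 ± 5.27 FPKM, beside Psat1 at 61.3 ± 2.26 and Phgdh at 51.0 ± 2.01. By CPM per kb of annotated exon, Phgdh stood near Atf4 in EV (112 against 140) and above it in BCR-ABL1 (162 against 116) and in C-MYC (220 against 134). Across the 6 libraries the mean FPKM of Phgdh was 0.159 of what its CPM per kb gave, relative to the ratio of the median gene, while the other members lay between 0.605 and 1.53. The ratio of FPKM to counts was even across libraries for Phgdh, at 4.0 to 4.67 FPKM per 1000 counts. The discrepancy was thus of similar size in each. A search of the annotated transcripts found 23 genes at least 85% identical to Phgdh over at least 200 bases, most of them processed pseudogenes. Of these, Gm6756 and Gm8096 were in the count table, with means of 0.833 and 0.667 counts. The handling of reads that fit several genes is not stated for the counts, and the level of Phgdh is therefore uncertain. Because both measures come from the same libraries, their even ratio cannot show whether reads of similar copies entered the fold changes of Phgdh.

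Atf5 showed a discrepancy of another kind. In BCR-ABL1 replicate 2 it had 6.56 FPKM against 15.4 in replicate 1, although the counts were 315 and 328. This library gave 20.8 FPKM per 1000 counts of Atf5, and the other 5 gave 46.7 to 50.5. The log2 fold change of Atf5 in C-MYC against BCR-ABL1 was -0.45 from counts (adjusted p = 0.19) and 0.12 by limma on log2(FPKM + 1) (adjusted p = 0.844), so its direction rested on the table used.

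**Figure D3:**
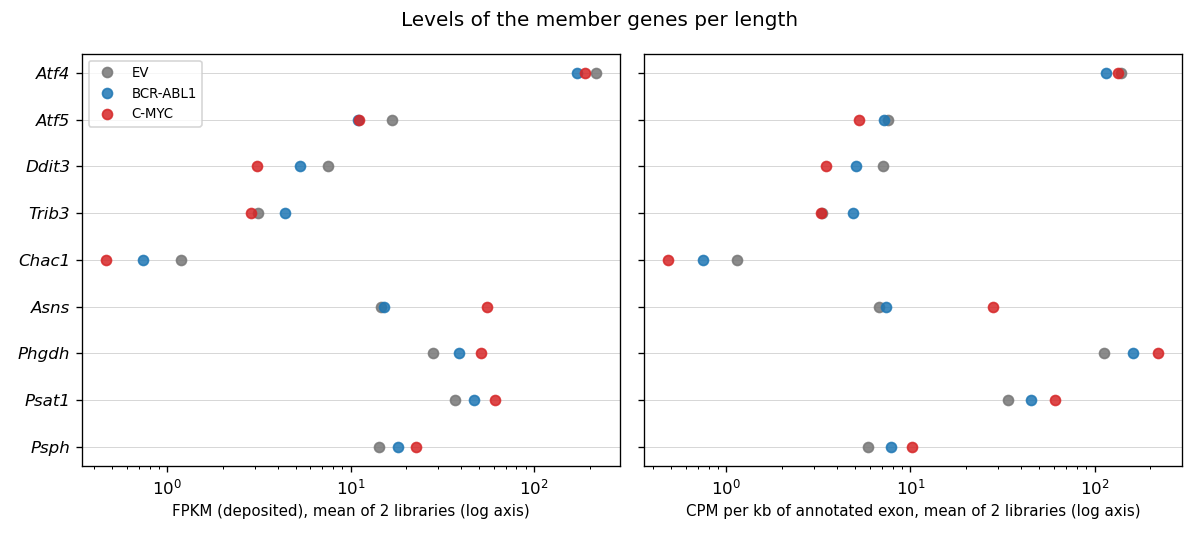
Mean levels of the 9 members in EV, BCR-ABL1 and C-MYC as deposited FPKM (left) and as CPM per kb of annotated exon (right), both on log axes. Phgdh lies at 28.2 to 51.0 FPKM and at 112 to 220 CPM per kb, and in C-MYC it lies below Atf4 on the left and above it on the right.

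Across the 6 libraries, members were compared with other genes by Pearson's correlation of log2 CPM among the 10623 genes whose counts averaged at least 50. The libraries share conditions and the values are given as a description. The genes most like Phgdh were Cul1 (0.999), Hprt (0.999), Nasp (0.998), Kdelc1 (0.998) and Rpp30 (0.998). Psat1 reached 0.986 with Phgdh, at rank 128, Psph 0.976, at rank 280, and Asns 0.861, at rank 1903. Ddit3 ran opposite to Phgdh with -0.973. The genes most like Atf4 were Zfp324 (0.975), Atxn2 (0.961), Ltbp4 (0.959), Ptov1 (0.957) and Chmp6 (0.956). The other members with enough counts had values between -0.221 (Trib3) and 0.225 (Asns) with Atf4.

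The wider pathway was followed in 6 lists of 130 genes without the members, of which 123 were tested, with a few genes in more than 1 list. In C-MYC against EV, 46 were called higher and 23 lower, where 18.6% and 24.5% of all genes were. In BCR-ABL1 against EV, 9 were called higher and 15 lower, shares near the 5.08% and 12.0% of all genes. With DESeq2's size factors in edgeR the latter counts were 12 and 13. In C-MYC against BCR-ABL1, 46 were called higher and 8 lower, beside 11.5% and 11.9% of all genes. By limma on log2(FPKM + 1), 35 were higher and 17 lower in C-MYC against EV, 2 and 8 in BCR-ABL1 against EV, and 28 and 6 in C-MYC against BCR-ABL1. Leaving out a BCR-ABL1 or C-MYC library of the comparison lowered the counts of calls, to 8 and 7 in all without BCR-ABL1 replicates 1 and 2 in BCR-ABL1 against EV and to 42 and 41 without C-MYC replicates 1 and 2 in C-MYC against EV. In C-MYC against BCR-ABL1 they came to 7 and 24 without BCR-ABL1 replicates 1 and 2 and to 21 and 21 without C-MYC replicates 1 and 2. Without EV replicates 1 and 2 they were 26 and 34 in BCR-ABL1 against EV and 68 and 76 in C-MYC against EV. Medians over the 123 genes were 0.21, 0.02 and 0.25 in these comparisons, beside -0.08, 0.00 and -0.00 over all genes.

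Upstream of Atf4, none of the 4 eIF2alpha kinases was called higher in any comparison with all 6 libraries fitted. Of all genes, 5.08% were called higher in BCR-ABL1 against EV, 18.6% in C-MYC against EV and 11.5% in C-MYC against BCR-ABL1. A count of 0 of 4 does not set the kinases apart from these shares. Eif2ak1, the heme-regulated kinase, had a log2 fold change of -0.07 in C-MYC against EV (SE 0.13), the double-stranded RNA sensor Eif2ak2 -0.66 (SE 0.24, adjusted p = 0.0553) and the amino acid sensor Eif2ak4 0.28 (SE 0.12, adjusted p = 0.0855). Eif2ak3, or PERK, the kinase of the endoplasmic reticulum, fell in C-MYC by 0.80 on the log2 scale against EV (log2 fold change -0.80, SE 0.21, adjusted p = 0.0172), a call that was lost without C-MYC replicate 1 (0.0672) or replicate 2 (0.106). It had 214 and 133 CPM with EV, 211 and 186 with BCR-ABL1 and 105 and 93.4 with C-MYC. With 1 library left out, the log2 fold change of Eif2ak3 in BCR-ABL1 against EV ran from -0.10 to 0.59, beside 0.20 with all 6. That of Eif2ak2 in C-MYC against EV ran from -0.99 to -0.22. Over all 15 genes of this list, 5 were called higher and 1 lower in C-MYC against EV (median 0.28), beside 18.6% and 24.5% of all genes. With BCR-ABL1, 1 was called higher and 0 lower than with EV (median 0.17), beside 5.08% and 12.0%, and limma called 0 higher. At an unadjusted p below 0.05 by edgeR 1 was lower in BCR-ABL1, with 1 called lower by DESeq2 and 0 by limma. Those that rose in C-MYC were eIF2alpha itself, Eif2s1 (0.99, adjusted p = 0.000576), and 4 of the subunits of its exchange factor eIF2B, led by Eif2b3 (1.72, adjusted p = 0.000653) and Eif2b4 (0.85, adjusted p = 0.00525). These 5 calls held when any library was left out. Eif2s1 also rose in BCR-ABL1 (0.42, adjusted p = 0.0357), a call that held only with all libraries or without EV replicate 2, with adjusted p-values of 0.074 without EV replicate 1, 0.113 and 0.283 without BCR-ABL1 replicates 1 and 2, and 0.0602 and 0.0604 without C-MYC replicates 1 and 2.

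Of 42 other ATF4 target genes 39 were tested, and 23 were called higher and 6 lower in C-MYC against EV, with a median log2 fold change of 0.75. Of all genes 18.6% and 24.5% were called so, and limma called 19 of the list higher and 2 lower. There were 2 called higher and 7 lower in BCR-ABL1 against EV (median -0.03), where 5.08% and 12.0% of all genes were, and limma called 0 higher and 4 lower. Between C-MYC and BCR-ABL1, 26 were called higher in C-MYC and 1 lower (median 0.68), beside 11.5% and 11.9% of all genes, and limma called 15 higher and 0 lower. The largest rises in C-MYC over EV were those of the secreted hormone Stc2, from 14 and 16 counts to 143 and 80 (log2 fold change 2.93, adjusted p = 0.00176), of the alanine transaminase Gpt2 (1.53, adjusted p = 0.0181) and of Pycr1, the last enzyme of proline synthesis (1.42, adjusted p = 0.00253). In C-MYC against EV, 15 of the 29 calls held when any library was left out, with Stc2 and Pycr1 among them, while Gpt2 was lost without C-MYC replicate 1 (adjusted p = 0.0643) or replicate 2 (0.0848). The 2 that rose in BCR-ABL1 were the amino acid carriers Slc7a5 (0.49, adjusted p = 0.0387) and Slc38a2 (0.37, adjusted p = 0.0377). Slc7a5 was lost without BCR-ABL1 replicate 1 (adjusted p = 0.177), BCR-ABL1 replicate 2 (0.194) or EV replicate 2 (0.0772), and Slc38a2 was lost without any library but EV replicate 2 (0.053 to 0.212). Slc7a5 imports leucine and had 212 and 197 CPM with EV, 289 and 287 with BCR-ABL1 and 530 and 414 with C-MYC. Of 11 tRNA synthetase genes in the list, a subset formed after its values were seen, 9 were called higher in C-MYC against EV, beside 18.6% of all genes, and 5 of these calls held when any library was left out. With BCR-ABL1, 0 were called higher than with EV, beside 5.08% of all genes, while 2 were higher at an unadjusted p below 0.05 by edgeR, 1 was called by DESeq2 and 0 by limma.

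Several genes of this list that fell had few counts. Nupr1, a stress-induced chromatin protein, had 20 and 47 counts with EV, 3 and 4 with BCR-ABL1 and 6 and 9 with C-MYC, and was called lower in both (adjusted p = 0.0106 and 0.0152). The mitochondrial folate enzyme Aldh1l2 had 14 and 33 counts with EV, 3 and 2 with BCR-ABL1 and 4 and 3 with C-MYC, and was also called lower in both (0.0156 and 0.0108). Vldlr, a lipoprotein receptor, had 18 and 15 counts in EV and 2 and 0 in C-MYC (adjusted p = 0.0179). Slc7a11, the cystine carrier, had 13.2 CPM in EV replicate 1 and 2.34 in EV replicate 2, beside 0.781 and 1.71 in C-MYC (adjusted p = 0.0262), and without EV replicate 1 its log2 fold change was -0.90 (adjusted p = 0.154). The falls of Nupr1 and Aldh1l2 were lost without either library of the transformed cells compared (adjusted p between 0.065 and 0.156). In C-MYC they were also lost without EV replicate 2 (0.0813 and 0.0571), as was that of Aldh1l2 in BCR-ABL1 (0.0572). Vldlr was lost without C-MYC replicate 2 (0.106) and Slc7a11 without C-MYC replicate 1 (0.155) or replicate 2 (0.0696). Cebpb, a partner of ATF4 that is also abundant in myeloid cells, had 38.4 and 19.8 CPM with EV, 3.79 and 4.94 with BCR-ABL1 and 18.6 and 21.8 with C-MYC. It fell in BCR-ABL1 against EV (log2 fold change -2.73, adjusted p = 0.00193), a call that held when any library was left out. Myeloid marker sums were likewise lowest in BCR-ABL1, at 140 to 171 CPM, with 9 of 9 myeloid markers called lower than in EV. Their part in these falls was not tested.

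Of 26 genes that use serine and glycine 22 were tested, and 13 were called higher and 2 lower in C-MYC against EV (median 0.65), beside 18.6% and 24.5% of all genes. Limma called 11 higher and 2 lower, and 10 of the 15 calls held when any library was left out. There were 6 called higher and 2 lower in BCR-ABL1 against EV (median 0.30), beside 5.08% and 12.0% of all genes. For these limma called 2 higher and 1 lower, and 2 of the 8 calls held when any library was left out. In C-MYC against BCR-ABL1, 9 were called higher and 1 lower, beside 11.5% and 11.9%, and 0 of the 10 calls held when any library was left out (median 0.48, or 0.42 with genes of at most 3 counts per library in a group set at that limit). Gcat, which forms glycine from a product of threonine, had 11.3 and 8.36 CPM with EV, 26.4 and 22.1 with BCR-ABL1 and 38.8 and 31.2 with C-MYC, with log2 fold changes over EV of 1.30 (adjusted p = 0.00569) and 1.83 (0.000601). Both held when any library was left out. Gcsh, a carrier protein of the glycine cleavage system, rose by 0.85 (0.014) and 1.49 (0.000661) on the log2 scale, and the first of these was lost without BCR-ABL1 replicate 1 (0.0784) or replicate 2 (0.0888).

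Shmt1 and Shmt2 convert serine to glycine in the cytosol and the mitochondria. Shmt1 rose in both conditions, with log2 fold changes of 0.54 (adjusted p = 0.0434) with BCR-ABL1 and 1.43 (0.000506) with C-MYC. The first call was lost without any library but EV replicate 2 (0.0791 to 0.297). Shmt2 rose in C-MYC (1.15, adjusted p = 0.000739) and had 0.37 in BCR-ABL1 (adjusted p = 0.111), and the mitochondrial folate enzyme Mthfd2 rose in C-MYC (0.89, adjusted p = 0.00226) and had 0.09 in BCR-ABL1 (0.726). Gldc, the glycine-cleaving subunit, had another order, with 616 and 600 CPM with EV, 1160 and 1163 with BCR-ABL1 and 909 and 827 with C-MYC. It was the gene of this list that was called lower in C-MYC than in BCR-ABL1 (log2 fold change -0.42, adjusted p = 0.0159), a call that was lost without BCR-ABL1 replicate 1 (0.132), BCR-ABL1 replicate 2 (0.113) or C-MYC replicate 2 (0.0794). Its rises over EV (0.93, adjusted p = 0.000983, and 0.51, 0.00355) held when any library was left out. Aldh1l2, given above, was among the genes that fell against EV in both conditions.

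The other branches of the unfolded protein response run through ATF6 and XBP1. Of 25 of their genes, 0 were called in either direction in BCR-ABL1 against EV (median 0.03). Of all genes, 5.08% were called higher there and 12.0% lower. At an unadjusted p below 0.05 by edgeR 2 of the 25 were higher and 0 lower, with 1 called higher by DESeq2 and 0 by limma. In C-MYC against EV 6 were called higher and 4 lower (median -0.04), beside 18.6% and 24.5% of all genes, and limma called 0 higher and 5 lower. The chaperone Hspa5 (BiP) had 621 and 741 CPM with EV, 617 and 775 with BCR-ABL1 and 636 and 857 with C-MYC, with a log2 fold change of 0.13 in C-MYC against EV (SE 0.17, adjusted p = 0.575). Sdf2l1 (0.67, adjusted p = 0.0428), Canx (0.66, 0.00476) and Pdia6 (0.61, 0.0102) had the largest rises in C-MYC by edgeR, and limma called none of them higher. Ero1lb, an oxidase of the endoplasmic reticulum, fell most (-1.43, adjusted p = 0.00148), with 178 and 113 CPM in EV and 55.3 and 52.8 in C-MYC. Dnajb9 (-0.70, 0.012) and Syvn1 (-0.62, 0.0476) also fell. Of the 10 calls, 2 held when any library was left out, and Ero1lb and Canx were these. Sdf2l1 was lost without C-MYC replicate 2 (0.255) or EV replicate 1 (0.104), Pdia6 without C-MYC replicate 2 (0.0678), Dnajb9 without C-MYC replicate 1 (0.0867) and Syvn1 without 4 of the libraries, among them C-MYC replicate 2 (0.248) and EV replicate 1 (0.211).

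Among 28 other ATF, CREB, C/EBP and related factors, 0 were called higher and 8 lower in BCR-ABL1 against EV (median -0.27), beside 5.08% and 12.0% of all genes, with 1 higher at an unadjusted p below 0.05 by edgeR and 0 called higher by DESeq2 or limma. Limma called 4 lower there. In C-MYC against EV 2 were called higher and 12 lower (median -0.61), beside 18.6% and 24.5% of all genes, and limma called 2 and 8. Atf3, which ATF4 induces and which feeds back on the response, had 17.6 and 20.0 CPM with EV, 5.31 and 4.03 with BCR-ABL1 and 6.57 and 10.2 with C-MYC. It fell in both (log2 fold change -2.01, adjusted p = 0.0028, and -1.16, 0.0087), and the fall in C-MYC was lost without C-MYC replicate 1 (0.0602). The myeloid factor Cebpa had 17.4 and 22 CPM with EV, 2.18 and 2.16 with BCR-ABL1 and 7.68 and 13.5 with C-MYC, and was called lower in both (adjusted p = 0.00096 and 0.0321), the second of which was lost without C-MYC replicate 1 (0.158), EV replicate 2 (0.0804) or either BCR-ABL1 library (0.0534 and 0.0537). Cebpe had 30 and 20 counts with EV, 3 and 1 with BCR-ABL1 and 3 and 4 with C-MYC, and Cebpd 56 and 50, 10 and 3, and 6 and 8, and both were called lower in both conditions. Cebpe was lost without either library of the transformed cells compared (0.0536 to 0.118) and Cebpd in BCR-ABL1 without its replicate 2 (0.0812). Atf3, these 3 factors and the myeloid markers were highest in EV, and the part of myeloid RNA in the values of Atf3 and the 3 factors was not tested. Jun fell in C-MYC (-1.77, adjusted p = 0.000325), from 108 and 142 CPM in EV to 37.1 and 36.0, and had a log2 fold change of 0.01 in BCR-ABL1. The 2 factors that rose in C-MYC were Cebpz (0.78, adjusted p = 0.00299) and Mafg (0.75, 0.0108), the latter lost without C-MYC replicate 1 (0.0534) or replicate 2 (0.0577).

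Of 3 paralogs of the members, Trib1, a relative of Trib3, had 27.4 and 30.2 CPM with EV, 29.4 and 30.7 with BCR-ABL1 and 54.1 and 53.7 with C-MYC, a rise in C-MYC (log2 fold change 0.90, adjusted p = 0.00131). Trib2 had 5.56 and 4.85 CPM with EV, 0.853 and 1.45 with BCR-ABL1 and 6.48 and 4.94 with C-MYC, a fall in BCR-ABL1 (-2.16, adjusted p = 0.00519), the condition in which both libraries of Trib3 were highest. Chac2 had log2 fold changes of -0.30 and 0.37 (adjusted p = 0.615 and 0.427).

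**Figure D4:**
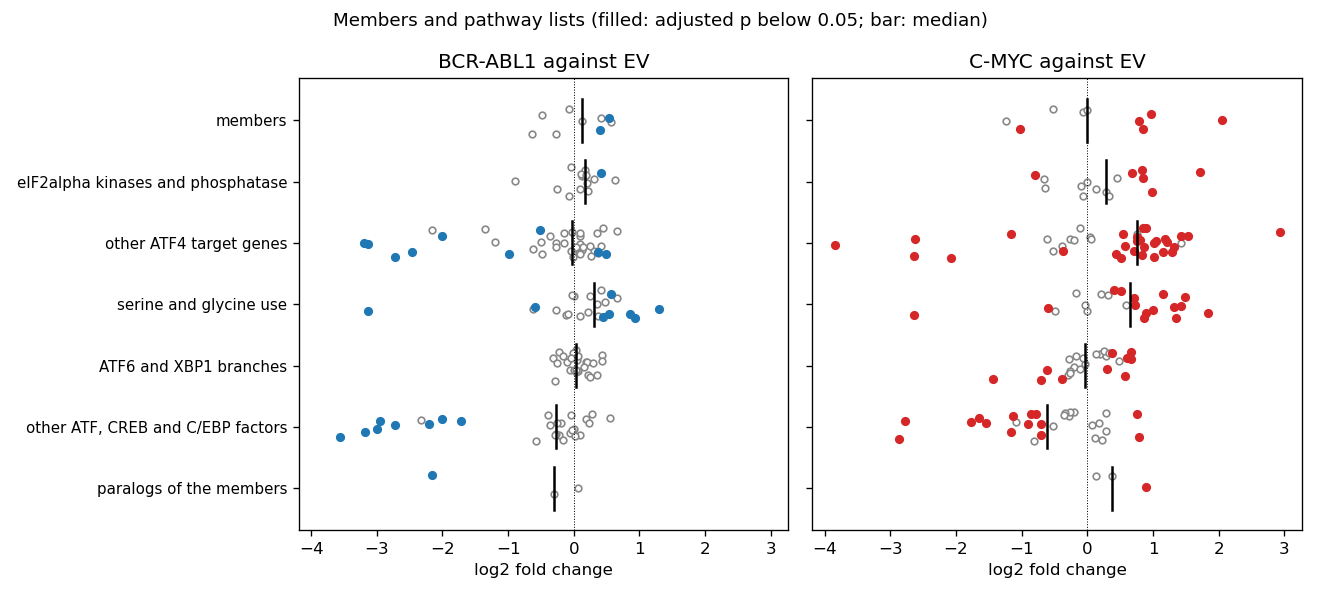
Log2 fold changes (horizontal axis) of the members and of the genes of 6 pathway lists in BCR-ABL1 against EV (left) and C-MYC against EV (right), with 1 point per gene, filled where the adjusted p was below 0.05, and a bar at the median of each list. The medians of the other ATF4 target genes lie at -0.03 and 0.75, and points beyond -2.5 include genes with 3 counts or fewer per library, whose fitted values depend on the prior count.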

How the data were processed

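Poly(A) RNA-seq of 6 libraries was analysed, with 2 each of EV, BCR-ABL1 and C-MYC, grouped by their labels. The 15 ChIP-seq samples of the series were not analysed here. The authors aligned reads to GRCm38/mm10 with STAR 2.5.0 and UCSC known genes and deposited raw counts per gene symbol. The counting program, its handling of strand and of multiply mapped reads are not given in the sources used here. The deposited FPKM values were calculated by the authors with StringTie 1.3.0. Neither table held columns of other samples.

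Counts were fitted with edgeR 4.0.16 in R 4.3.3 (TMM, filterByExpr, glmQLFit and glmQLFTest) over all 6 libraries with condition as the only term, and p-values were adjusted by Benjamini-Hochberg over all genes tested. A call needed an adjusted p below 0.05. The fit was tested on simulated counts with a log2 change of 1.5 set in C-MYC only. Of 199 changed genes tested, 76.4% were called against EV and 75.9% against BCR-ABL1, with 13 and 9 unchanged genes called. Smaller changes and changes in BCR-ABL1 were not simulated. Alternatives used DESeq2 1.42.0, and limma 3.58.1 on log2(FPKM + 1) or log2(FPKM + 0.1). Positions and exon lengths came from GENCODE M21 (GRCm38), similar transcripts from BLAST 2.17.0, and promoters from RefSeq (GRCm38.p6).

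The members and lists were chosen with earlier results of these data known. All members were named, and of each list up to 3 called genes per direction with the largest fold change against EV, and a few fixed genes. Emr1 is listed as Adgre1 in the tables. The tRNA synthetases as a subset and the genes that share exon bases with members were named after their values were seen. Some genes of the lists, included in the list counts but not in the marker sums, are not reported here.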

Additional observations from a re-analysis of the deposited data

How the results depend on the processing

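In C-MYC against EV the calls of Asns, Phgdh, Psat1, Psph and Ddit3 held under all 14 alternatives. Over all members and comparisons, 326 fold changes under an alternative kept direction and side of the threshold, 20 passed it newly, 17 no longer passed and 15 changed sign, all of the last being uncalled. Counts of members called moved in BCR-ABL1 against EV from 2 to 1 with only the 4 libraries compared and by limma (both pseudocounts and without a filter), and to between 0 and 4 when 1 library was left out. In C-MYC against BCR-ABL1 they moved from 3 to 6 with 4 libraries and to between 1 and 6 when 1 was left out, and in C-MYC against EV from 5 to between 5 and 6. Pathway genes called moved from 24 to 10, 11 and 12 by limma with pseudocounts 1 and 0.1 and without a filter (7 to 34 with 1 library left out) in BCR-ABL1 against EV. They moved from 69 to 44 by limma without a filter (41 to 76) in C-MYC against EV, and from 54 to 34 with pseudocount 1 and 22 without a filter (7 to 64) in C-MYC against BCR-ABL1. All genes called moved from 2180 to 1255, 1271 and 1425 by limma (665 to 2729) in BCR-ABL1 against EV, and from 5515 to between 3329 and 6077 with 1 library left out in C-MYC against EV. In C-MYC against BCR-ABL1 they moved from 2991 to 4538 with 4 libraries and 1412 by limma without a filter (618 to 4519). The smallest counts of pathway genes and of all genes came without a library of the conditions compared, which leaves 1 there that is assumed to vary like the others.

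Signs changed for Trib3 in C-MYC against EV, at 0.03 with DESeq2's size factors, 0.01 without a filter, 0.03 by DESeq2, 0.04 with 4 libraries and 0.00 with the replicate block. Atf5 in C-MYC against BCR-ABL1 turned to 0.12, 0.14 and 0.12 by limma. With 1 library left out, log2 fold changes ran from -0.28 to 0.18 (Atf5) and -1.67 to 0.43 (Chac1) in BCR-ABL1 against EV, from -0.26 to 0.19 (Atf4) and -0.22 to 0.25 (Trib3) in C-MYC against EV, and from -1.21 to 0.44 (Chac1) in C-MYC against BCR-ABL1. The causes were not tested.

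With replicate number as a block, 3224, 6631 and 4278 genes were called in BCR-ABL1 against EV, C-MYC against EV and C-MYC against BCR-ABL1. Members called were 3, 6 and 5, and pathway genes 37, 83 and 65. Psph in BCR-ABL1 against EV (adjusted p = 0.0385) and in C-MYC against BCR-ABL1 (0.0393) and Atf5 in C-MYC against EV (0.0219) passed the threshold with it, as did Atf5 in C-MYC against BCR-ABL1 at the limit itself (0.05 after rounding). The labels share only the number, with 2 pairs per comparison. Deviations of same-numbered libraries correlated at 0.273 (EV and BCR-ABL1), 0.236 (EV and C-MYC) and 0.204 (BCR-ABL1 and C-MYC).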
